A study of Homo sapiens with 12 samples.

Results

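TCN1 and 9 further genes of vitamin B12 (cobalamin) handling were followed in A375 melanoma cells with and without knockdown of ALKBH5, the demethylase that removes m6A (N6-methyladenosine) from mRNA. The genes were TCN1, TCN2, CD320, LMBRD1, ABCD4, MMACHC, MTR, MTRR, MMAA and MMAB, 10 of the 29696 genes in the expression table. TCN1 was selected on its higher FPKM in the shALKBH5 libraries of this same comparison, and the others were chosen by their role in the pathway with those results known. Their differences in input RNA are therefore a description, with no p-value, and support nothing beyond the values themselves. Where a member gene is given as called, the word only marks where it fell in the fit over all genes and is no test of that gene.

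A375 is an established line from a human melanoma. The cells were infected with lentivirus that carried either a short hairpin RNA against ALKBH5 (shALKBH5, labelled as ALKBH5 knockdown) or a control hairpin (shCtrl, labelled as wild type). Each group held 3 input RNA libraries and 3 m6A immunoprecipitation (IP) libraries; the collection time is stated for the RNA-Seq cells of the paper only. The hairpin that the sequenced shALKBH5 cells carried is not named in the sources used here, so a difference between the groups is a difference between these hairpins in 1 cell line. The input values were FPKM, fragments scaled to transcript length and to library depth, so levels of different genes are on a scale per length. The comparison addressed which transcripts differed when ALKBH5 was low.

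Cobalamin is a cofactor that human cells cannot make. In blood it is bound by haptocorrin, the product of TCN1, and by transcobalamin, the product of TCN2, and cells take up the transcobalamin complex through the receptor CD320. In the lysosome the vitamin is released and passes to the cytosol with the membrane proteins LMBRD1 and ABCD4, and MMACHC then strips its upper ligand. It ends as the cofactor of methionine synthase (MTR), which MTRR keeps active, or of the mitochondrial methylmalonyl-CoA mutase (MMUT), which MMAB and MMAA supply with adenosylcobalamin. TCN1 is classically a product of neutrophil granules and of secretory epithelium.

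The promoters of the member genes differed in base composition. RefSeq (GRCh38.p14) gave start sites for 8 of the 10 genes; TCN2 and MTRR are named only. The 250 bases before the start of TCN1 held 40.0% G and C and 1 CpG, against medians of 58.0% and 11 over 35116 promoters. CD320 held 53.6% and 13 CpG, and MMACHC 53.2% and 15 CpG. The promoters of TCN1, CD320 and MMACHC are shown because TCN1 was the member with the largest difference between the groups, CD320 was the member at a like level in shALKBH5 cells, and MMACHC is a known target of the transcription factors ZNF143 and THAP11. Capitals mark motifs found on either strand. CCAAT was present in 32.0% of all promoters, GGGCGG (or CCGCCC on the other strand) in 42.6%, TATAAA in 10.7% and the ZNF143 core ACTACAA in 2.47%. TCN1 covers chr11:59866488-59866737 on the minus strand, CD320 chr19:8308359-8308608 on the minus strand and MMACHC chr1:45500050-45500299 on the plus strand.
TCN1: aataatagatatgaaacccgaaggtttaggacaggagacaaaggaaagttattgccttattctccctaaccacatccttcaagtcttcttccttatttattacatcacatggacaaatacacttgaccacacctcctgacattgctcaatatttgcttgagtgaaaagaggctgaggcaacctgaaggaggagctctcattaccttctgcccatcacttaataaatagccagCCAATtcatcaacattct
CD320: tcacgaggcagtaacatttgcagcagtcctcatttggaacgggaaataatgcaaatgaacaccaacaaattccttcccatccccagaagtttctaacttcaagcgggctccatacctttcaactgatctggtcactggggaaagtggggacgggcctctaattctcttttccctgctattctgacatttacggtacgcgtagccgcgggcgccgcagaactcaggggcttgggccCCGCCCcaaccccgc
MMACHC: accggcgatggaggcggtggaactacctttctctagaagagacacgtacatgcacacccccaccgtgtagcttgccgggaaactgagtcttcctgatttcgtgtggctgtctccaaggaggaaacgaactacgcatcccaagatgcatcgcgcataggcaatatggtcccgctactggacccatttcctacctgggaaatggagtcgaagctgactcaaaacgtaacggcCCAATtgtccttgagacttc
CCAAT began 18 bases before the TCN1 start and 20 bases before the MMACHC start, and CD320 held CCGCCC 15 bases before its start. No TATAAA and no ACTACAA was found in these 3 windows, which says only that those letters are not in them.

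ALKBH5 was low in every library labelled as knockdown. Its input FPKM was 3.39, 3.92 and 3.12 in shALKBH5 replicates 1, 2 and 3, and 19.3, 17.8 and 17.6 in the shCtrl replicates. The groups did not overlap, and the log2 fold change (shALKBH5 minus shCtrl, on log2(FPKM + 0.1), as throughout) was -2.36 ± 0.09 (SE, n = 3 per group; limma adjusted p = 1.28e-06). The libraries of a group resembled each other closely: Pearson's r of log2 values over 12985 genes, which are not independent of each other, ran from 0.981 to 0.984 within groups and from 0.929 to 0.934 between them. By these correlations no library stood apart from its group. Over 31 genes of the lists below, shCtrl replicate 2 was the highest of its group in 16 and the lowest in 10. For shALKBH5 replicate 2 these counts were 14 and 13.

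The whole table moved widely. Of 12985 genes that averaged 0.5 FPKM or more over the input libraries, 7917 were called at an adjusted p under 0.05, which is 61%. Higher calls in shALKBH5 made up 34.7% and lower calls 26.2% of the tested genes, and in 67% the 3 libraries of 1 group all lay outside the range of the other. This balance depended on scaling: with each library rescaled by its median ratio, 3756 genes were called higher and 3919 lower. Of the 10 member genes 9 passed the filter, and MMAA did not. Of those 9, 2 were called higher (TCN1 and MTRR), 3 lower (CD320, ABCD4 and MMACHC) and 4 were not called, and 6 had groups that did not overlap. Since TCN1 was chosen on this contrast and the others with its results known, nothing is read from these counts. The median log2 fold change was 0.08 over the 9 genes, -0.07 over the 8 without TCN1, and 0.09 over all tested genes.

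**Figure D1:**
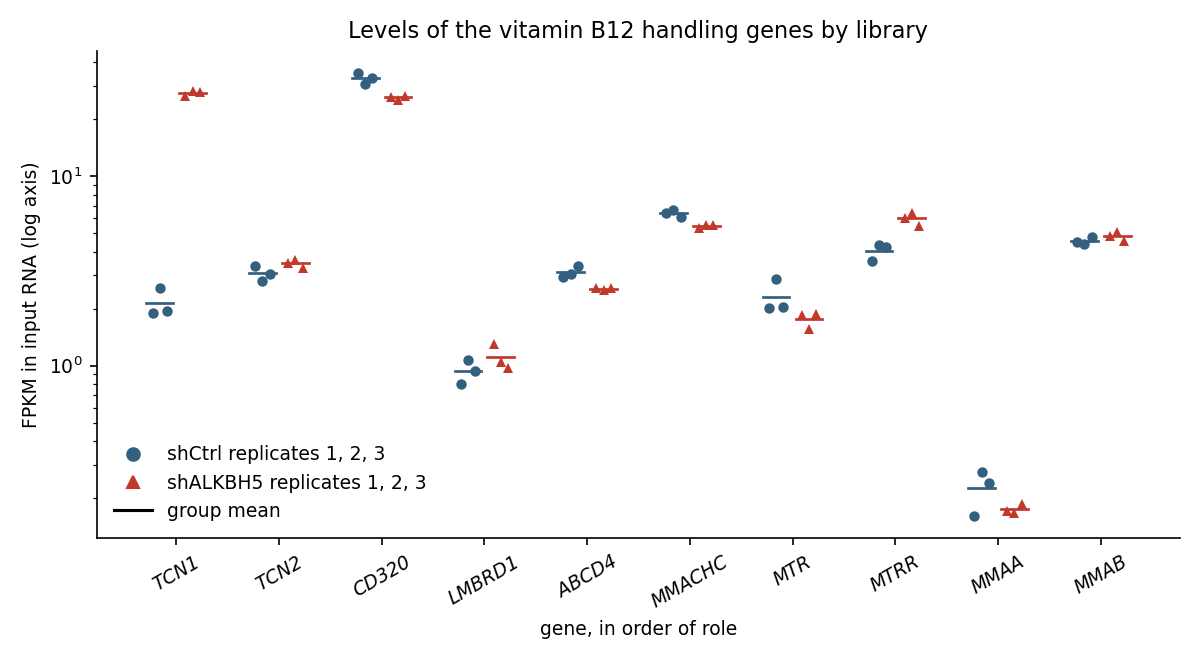
Input FPKM (log axis) of the 10 member genes in each of the 6 libraries, with bars at the group means. The TCN1 points of shALKBH5 lie near those of CD320 at the top, those of shCtrl near 2, and MMAA is the lowest gene in both groups.

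TCN1 encodes haptocorrin and lies at chr11:59852800-59866489 on the minus strand. Its FPKM was 26.6, 28.3 and 28.0 in the shALKBH5 libraries and 1.90, 2.58 and 1.95 in the shCtrl libraries. All 3 shALKBH5 values were over 10 times the highest shCtrl value. The means were 27.6 ± 0.890 and 2.14 ± 0.380 (SD, n = 3), a ratio of 12.9, and the log2 fold change was 3.64 ± 0.11 (SE). With a pseudocount of 1 in place of 0.1 it was 3.19. Of the 12985 tested genes, 5 were called with a larger increase at the pseudocount of 0.1. The order hung on that constant. With 0.01, FGF7P3 (4.52) and LIVAR (5.69) lay above TCN1 (3.70), and with 1, HSD17B10 (3.40) did. With 0.1 they lay below TCN1, at 3.32, 3.20 and 3.49. In bulk RNA a higher level can come from more cells that express a gene or from more RNA per cell, and these cannot be told apart.

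TCN2, at chr22:30607003-30627271, encodes transcobalamin, the carrier that delivers cobalamin to cells. Its FPKM was 3.50, 3.63 and 3.30 in shALKBH5 and 3.38, 2.79 and 3.06 in shCtrl. The ranges overlapped, and the log2 fold change of 0.17 ± 0.09 (SE) was not called. It was called without shCtrl replicate 1, at 0.24, and was 0.11 without shCtrl replicate 2. The balance of the carriers therefore differed through TCN1: the ratio of TCN1 to TCN2 FPKM was 7.61, 7.80 and 8.49 in the shALKBH5 libraries and 0.561, 0.925 and 0.637 in the shCtrl libraries. TCN2 exceeded TCN1 in each shCtrl library, and TCN1 exceeded TCN2 in each shALKBH5 library.

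CD320, at chr19:8302127-8308358, encodes the receptor for the transcobalamin complex. Its FPKM was 26.4, 25.4 and 26.7 in shALKBH5 and 35.2, 30.7 and 33.2 in shCtrl. Every shALKBH5 value lay below every shCtrl value, and the log2 fold change was -0.33 ± 0.06 (SE), called lower. The ratio of TCN1 to CD320 was 1.01, 1.12 and 1.05 in shALKBH5 and 0.0539, 0.0841 and 0.0587 in shCtrl.

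Of the genes for lysosomal release, LMBRD1 and ABCD4, only ABCD4 was called. LMBRD1, at chr6:69672757-69867236, had an FPKM of 1.298, 1.05 and 0.969 in shALKBH5 and 0.801, 1.07 and 0.940 in shCtrl. These ranges overlapped, and the log2 fold change of 0.21 ± 0.16 (SE) was not called, and was 0.10 without shALKBH5 replicate 1 and 0.31 without shCtrl replicate 2. ABCD4, its partner at chr14:74285269-74303055, had 2.56, 2.51 and 2.58 in shALKBH5 and 2.95, 3.06 and 3.37 in shCtrl. The ABCD4 groups did not overlap, and its log2 fold change of -0.28 ± 0.08 (SE) was called lower, but not without shCtrl replicate 3, where it was -0.23.

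MMACHC, the cytosolic processing protein, lies at chr1:45500300-45513382. Its FPKM was 5.32, 5.51 and 5.56 in shALKBH5 and 6.44, 6.67 and 6.10 in shCtrl, groups that did not overlap. The log2 fold change was -0.22 ± 0.06 (SE), called lower. MMACHC on the plus strand overlaps PRDX1 on the minus strand over 2347 bases, and PRDX1 averaged 387.7 FPKM against 5.93 for MMACHC. The library protocol marks the strand, but the sources used here do not say whether counting used it, so whether reads of these genes were kept apart in the shared stretch was not tested.

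Of the pair of genes for methionine synthase and its reductase, only MTRR was called. MTR, the synthase at chr1:236795292-236921278, had an FPKM of 1.85, 1.57 and 1.88 in shALKBH5 and 2.02, 2.85 and 2.05 in shCtrl. The groups were adjacent without overlap, and shCtrl replicate 2 was high. The log2 fold change of -0.35 ± 0.15 (SE) was not called, and was -0.20 without that library. When each library was rescaled by its median ratio, MTR was called lower, at -0.43. MTRR, the reductase at chr5:7851186-7906025, had 6.05, 6.44 and 5.50 in shALKBH5 and 3.57, 4.34 and 4.22 in shCtrl. All MTRR values of shALKBH5 lay above those of shCtrl, and the log2 fold change was 0.56 ± 0.09 (SE), called higher. The ratio of MTRR to MTR was 3.27, 4.10 and 2.92 in shALKBH5 and 1.77, 1.52 and 2.06 in shCtrl, again without overlap. FASTKD3 lies opposite MTRR over 9879 bases, at a mean of 1.86 FPKM. Other members overlap tested genes too: TCN2 with PES1 (81 bases, mean 36.0 FPKM) and LMBRD1 with COL19A1 (681 bases, 2.02 FPKM). MMAB overlaps MVK (326 bases, 3.03 FPKM), and CD320 overlaps AC010323 on the same strand (76 bases, 3.40 FPKM). Whether reads were kept apart in these stretches was not tested either.

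Neither mitochondrial member was called, and for both the ranges of the groups overlapped. MMAB, the adenosyltransferase at chr12:109553715-109573580, had an FPKM of 4.82, 5.08 and 4.58 in shALKBH5 and 4.51, 4.37 and 4.801 in shCtrl. The log2 fold change was 0.08 ± 0.07 (SE). It ran from 0.04 to 0.12 with 1 library left out, and was 0.004 after rescaling by median ratio. MMAA, the GTPase that loads and guards the mutase, lies at chr4:145599042-145660033 and had 0.171, 0.166 and 0.186 in shALKBH5 and 0.161, 0.275 and 0.239 in shCtrl. It was under the filter, so it was not among the tested genes, and its log2 fold change was -0.23 ± 0.20 (SE). That value was -0.06 with a pseudocount of 1, and ran from -0.38 to -0.12 with 1 library left out.

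The order of the genes by level changed mainly at TCN1. In shALKBH5 cells TCN1 and CD320 led with overlapping ranges, followed by MTRR and MMACHC, whose ranges also overlapped, and then by MMAB, TCN2, ABCD4, MTR, LMBRD1 and MMAA, each separate from the next. In shCtrl cells CD320 led alone, followed by MMACHC, MMAB and MTRR without overlap. ABCD4, TCN2, MTR and TCN1 came next, and each range overlapped that of its neighbour. LMBRD1 and MMAA were again last. TCN1 moved from rank 8 to rank 1 of the 10, and among all listed genes from the percentile 71.7 to 95.1. The FPKM of the 10 genes summed to 78.6, 79.6 and 79.2 in shALKBH5 and to 61.0, 58.7 and 60.0 in shCtrl. TCN1 made up 33.9%, 35.5% and 35.3% of that sum in shALKBH5 and 3.11%, 4.39% and 3.25% in shCtrl.

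**Figure D2:**
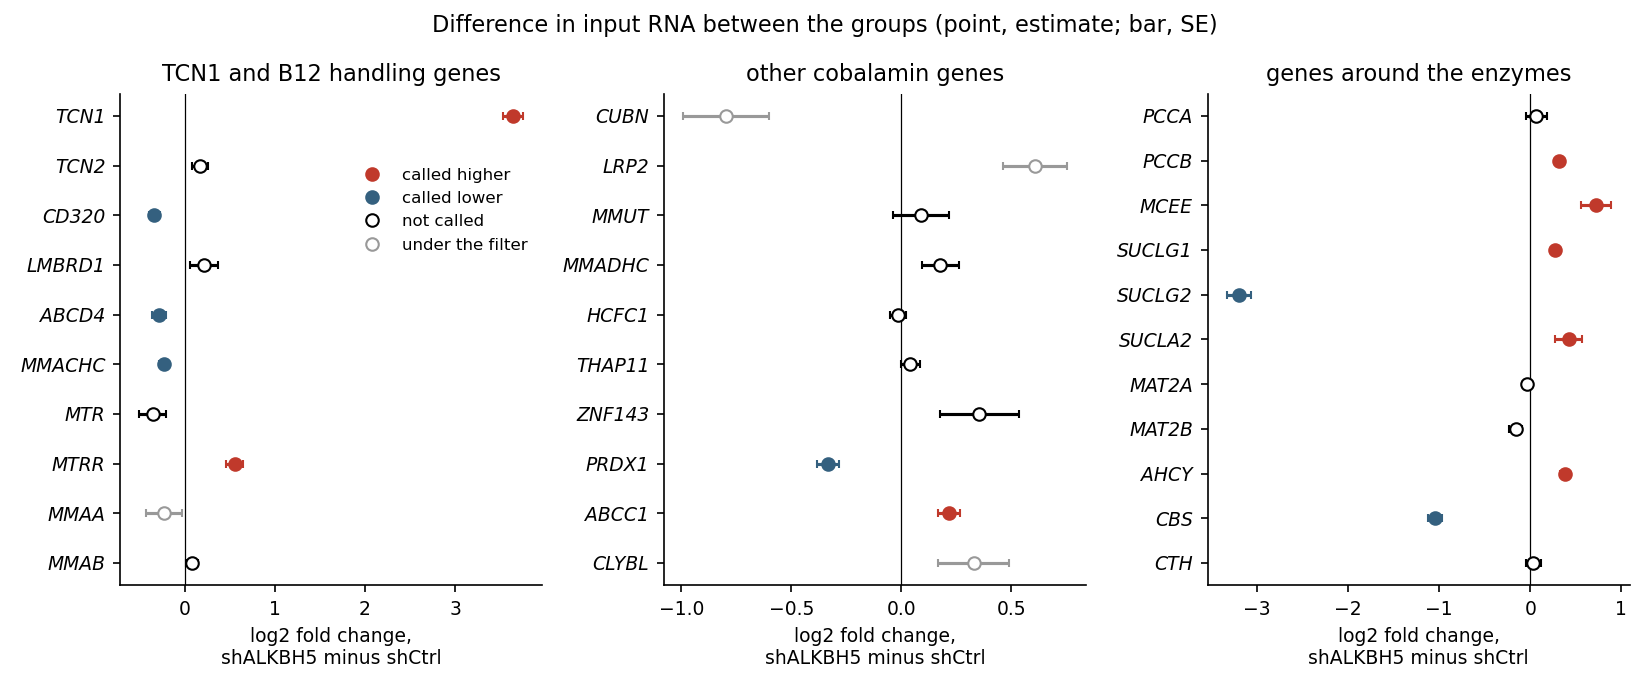
Log2 fold change in input RNA (shALKBH5 minus shCtrl, bars are SE from the limma fit, n = 3 per group) of the member genes, the other cobalamin genes and the genes around the cobalamin enzymes, with filled points for called genes and grey points for genes under the filter. TCN1 at 3.64 and SUCLG2 at -3.20 lie far from the rest; each panel has its own axis.

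A second list, of other genes of cobalamin biology chosen by role, had 12 genes: CBLIF, CUBN, AMN and LRP2 for uptake in gut and kidney, MMUT and MMADHC for intracellular use, HCFC1, THAP11 and ZNF143 for transcription of MMACHC, and PRDX1, ABCC1 and CLYBL. CBLIF and AMN are not in the table used here, and CUBN, LRP2 and CLYBL were under the filter. Of the 7 tested, 1 was called higher and 1 lower, beside 34.7% and 26.2% of all tested genes, and nothing is read from these counts. This list, the genes around the enzymes and the cell type markers were chosen with earlier results of these data known. Their adjusted p-values mark places in the fit over all genes and are no independent tests.

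PRDX1, a peroxidase and the neighbour of MMACHC, was lower. Its FPKM was 337, 352 and 340 in shALKBH5 and 447, 402 and 448 in shCtrl, groups that did not overlap, with a log2 fold change of -0.33 ± 0.05 (SE; limma adjusted p = 0.000903). ABCC1, an efflux pump that can carry cobalamin out of cells, was higher. It had 13.7, 13.6 and 14.03 in shALKBH5 and 12.3, 11.2 and 11.96 in shCtrl, with a log2 fold change of 0.22 ± 0.05 (SE; limma adjusted p = 0.00685). The ABCC1 call was lost when the libraries were rescaled by their median ratios (0.14, adjusted p = 0.0906).

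MMUT, the mutase itself, had a mean of 1.65 ± 0.0983 FPKM in shALKBH5 and 1.56 ± 0.258 in shCtrl (SD, n = 3; adjusted p = 0.576). MMADHC, which hands cobalamin on toward its enzymes, had 32.4 ± 1.99 and 28.7 ± 3.05 (adjusted p = 0.105). HCFC1 had 31.5 ± 0.429 and 31.9 ± 0.815 (adjusted p = 0.751), and THAP11 25.3 ± 0.298 and 24.6 ± 0.968 (adjusted p = 0.452). These 4 genes were not called, and their ranges overlapped between the groups. ZNF143 had 2.36, 1.98 and 2.42 in shALKBH5 and 1.56, 2.32 and 1.44 in shCtrl. It was not called (0.35 ± 0.18 SE, adjusted p = 0.124), but was called at 0.56 without shCtrl replicate 2 (adjusted p = 0.00648), and was 0.23 without shCtrl replicate 3. CUBN reached at most 0.511, LRP2 at most 0.0997 and CLYBL at most 0.455 FPKM. Without the filter CUBN (-0.80 ± 0.20 SE, adjusted p = 0.0292) and LRP2 (0.61 ± 0.15 SE, adjusted p = 0.0273) were called, in opposite directions and at these low levels, where the difference hung on the pseudocount: with 1 and with 0.01 it was -0.25 and -1.03 for CUBN and 0.08 and 1.99 for LRP2.

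The genes around the cobalamin enzymes included SUCLG2, which had a large decrease. Of 13 genes on a list by role, from which 1 planned gene was left out with the results known, 11 were in the table and tested, and no count of calls is given for them. BHMT and BHMT2 are not in the table used here. Of the propionate steps before the mutase, PCCB, a subunit of propionyl-CoA carboxylase, was higher (11.2 ± 0.442 against 8.98 ± 0.368 FPKM, SD, n = 3; log2 0.32 ± 0.05 SE, limma adjusted p = 0.00163). MCEE, the methylmalonyl-CoA epimerase, was higher as well, at 1.17, 1.43 and 1.14 FPKM against 0.644, 0.892 and 0.637 (log2 0.72 ± 0.17 SE, adjusted p = 0.00716), and its call held with a pseudocount of 1, where the difference was 0.38. PCCA, the other carboxylase subunit, was not called.

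The succinyl-CoA ligase that follows the mutase differed by subunit. SUCLG2, the subunit that makes the ligase use GDP, had an FPKM of 1.25, 1.31 and 1.33 in shALKBH5 and 10.3, 15.0 and 13.4 in shCtrl. Every shALKBH5 value was far below the lowest shCtrl value, the ratio of means was 0.1004, and the log2 fold change was -3.20 ± 0.13 (SE; limma adjusted p = 1.69e-06). SUCLG1, the shared subunit, was higher (20.2 ± 0.660 against 16.7 ± 0.637 FPKM, SD; log2 0.28 ± 0.05 SE, adjusted p = 0.00186). SUCLA2, the ADP subunit, had 1.52, 1.33 and 1.52 against 0.991, 1.31 and 0.918, groups that barely separated. Its call (log2 0.42 ± 0.15 SE, adjusted p = 0.0388) was lost without the filter, after rescaling, with a replicate block (adjusted p = 0.0803) and in 5 of the 6 fits that left out a library; it was kept only in the fit without shCtrl replicate 2.

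In the methionine cycle AHCY, which clears adenosylhomocysteine, was higher at 72.8 ± 1.64 against 55.9 ± 3.79 FPKM (SD; log2 0.38 ± 0.05 SE, limma adjusted p = 0.000593). CBS, which draws homocysteine off toward cysteine, was lower, at 1.42, 1.35 and 1.51 against 2.94, 3.18 and 3.02 (log2 -1.05 ± 0.08 SE, adjusted p = 3.25e-05). MAT2A, MAT2B and CTH were not called. MAT2B was called lower after rescaling (-0.24, adjusted p = 0.0215) and without shALKBH5 replicate 2.

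**Figure D3:**
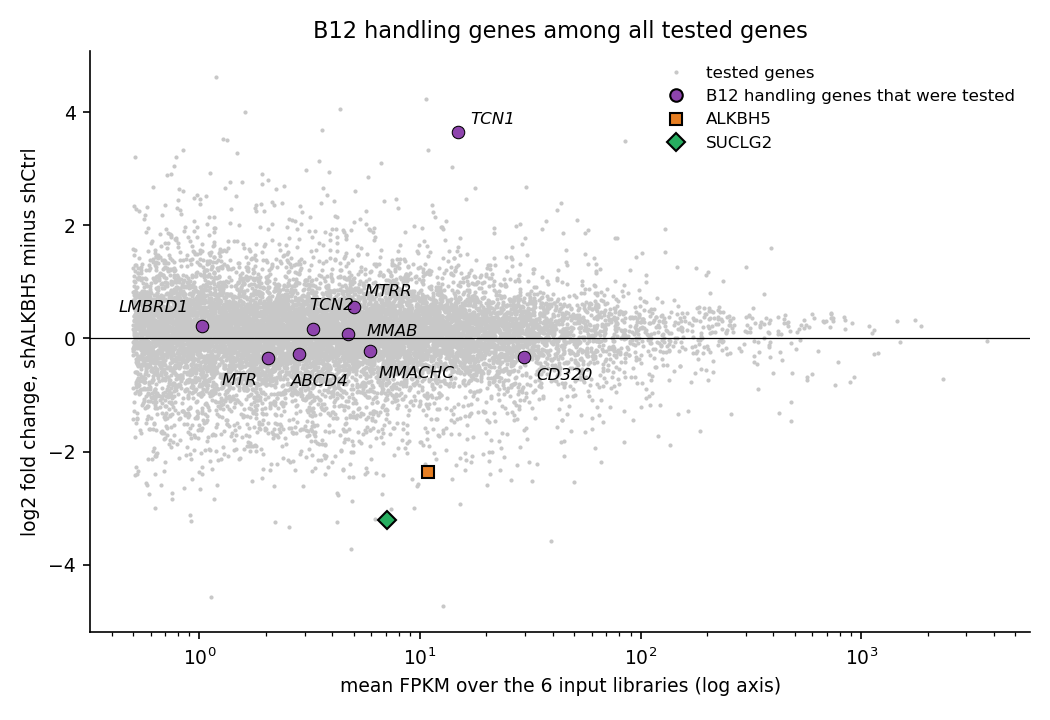
Log2 fold change against mean FPKM (log axis) for the 12985 tested genes, with the 9 tested member genes, ALKBH5 and SUCLG2 marked. Apart from TCN1, the member genes lie between -0.35 and 0.56.

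The genes nearest to TCN1 on chromosome 11 did not share its change in size. At lower coordinates MRPL16, a mitochondrial ribosomal protein gene 42022 bases away, had 55.6 ± 1.93 against 37.4 ± 0.336 FPKM (SD, n = 3; log2 0.57 ± 0.04 SE, limma adjusted p = 1.78e-05). STX3, a syntaxin gene, had 12.6 ± 0.669 against 7.98 ± 0.474 (log2 0.65 ± 0.06 SE, adjusted p = 0.000107). FABP5P7, a pseudogene inside STX3, was lower (log2 -0.55 ± 0.09 SE, adjusted p = 0.00145), and its reads may be shared with FABP5 and its other copies. At higher coordinates SRD5A3P1, OOSP1 and AP000790 were listed at 0 in most libraries and reached at most 0.0747 FPKM.

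The tested genes with the profile most like TCN1 were taken as those at the smallest Euclidean distance over the 6 libraries, each profile centred on its own mean. HSD17B10, a mitochondrial dehydrogenase, was nearest at 0.509, against a median distance of 4.38 over the tested genes. INMT, an N-methyltransferase, followed at 0.524, FGF7P3, a pseudogene, at 0.648, C3AR1, the receptor for complement C3a, at 0.755, and LIVAR, a long non-coding RNA gene, at 0.839. SLAMF9, the next gene and the first outside the list, stood at 0.857. HSD17B10 had an FPKM of 156, 156 and 157 in shALKBH5 and 15.3, 13.01 and 13.4 in shCtrl. INMT had 19.1, 19.8 and 20.5 against 1.82, 1.86 and 1.97, and C3AR1 had 11.7, 12.3 and 12.1 against 1.298, 1.29 and 1.36. These genes were chosen by their likeness to TCN1 in this contrast, so that the groups do not overlap follows from the choice. FGF7P3 (mean 1.60 against 0.0799 FPKM) and LIVAR (1.00 against 0.0194) lay near 0 in the shCtrl libraries. They passed the filter only through the shALKBH5 libraries, and their difference hung on the pseudocount. With 1 and with 0.01 in place of 0.1 it was 1.27 and 4.52 for FGF7P3 and 0.96 and 5.69 for LIVAR. Their place among the nearest genes is thus set in part by that constant.

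**Figure D4:**
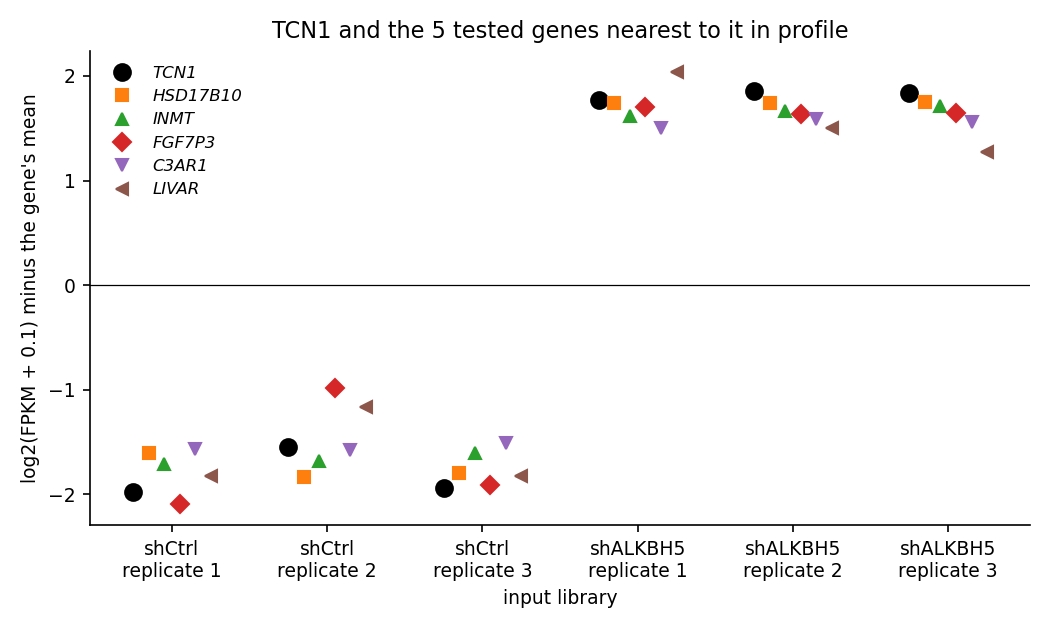
Log2(FPKM + 0.1) minus the mean of each gene, for TCN1 and the 5 tested genes nearest to it in profile, in each input library. All 6 genes lie below 0 in the shCtrl libraries and above 0 in the shALKBH5 libraries; FGF7P3 and LIVAR scatter most.

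Markers of the cell types in which TCN1 is usually found were mixed. Of 10 neutrophil genes 4 were in the table (LTF, CAMP, LCN2 and MMP8), and CEACAM8, OLFM4, CHI3L1, MPO, ELANE and PTPRC were not. LTF was listed at 0 in all libraries but shALKBH5 replicate 3 (0.0160 FPKM). The neutrophil list summed to 5.15, 5.04 and 4.34 FPKM in shALKBH5 and 2.04, 1.94 and 2.08 in shCtrl. Most of that was MMP8, a collagenase, at 4.74, 4.44 and 4.09 against 1.12, 1.45 and 1.16 (log2 1.76 ± 0.11 SE, limma adjusted p = 1.33e-05). CAMP, a granule peptide gene, had 0.371, 0.509 and 0.171 against 0.855, 0.490 and 0.825 (log2 -0.91 ± 0.34 SE, adjusted p = 0.0503), and was called lower after rescaling (-0.98, adjusted p = 0.0381). With 1 library left out its difference ran from -1.17 to -0.59 and was called in 2 of 6 fits. LCN2 reached at most 0.0982. The part of these genes in the TCN1 values was not tested.

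All 10 genes of secretory epithelium were in the table, and they summed to 109, 109 and 114 FPKM in shALKBH5 and 281, 230 and 243 in shCtrl. KRT18, a keratin gene, was the most abundant, at 93.6, 93.5 and 98.3 against 262, 213 and 225 (log2 -1.29 ± 0.07 SE, limma adjusted p = 8.03e-06). Of the 10 genes, 4 averaged 1 FPKM or more: KRT18, KRT8, KRT7 and MUC5B. EPCAM, PIGR, MUC5AC, BPIFB1 and KRT19 reached at most 0.0591, 0.00782, 0.0138, 0.135 and 0.106. The difference of the sums lay mainly in KRT18. MUC5B, a mucin gene, was lower as well, at 0.717 ± 0.0437 against 1.83 ± 0.127 FPKM (SD; log2 -1.24 ± 0.11 SE, adjusted p = 5.64e-05). KRT7 was called lower (log2 -0.27 ± 0.08 SE, adjusted p = 0.0263), but not with a replicate block and in only 1 of 6 fits that left out a library. KRT8, the next most abundant, was not called (13.1 ± 0.470 against 13.5 ± 1.18 FPKM; adjusted p = 0.610). Of genes under the filter, KRT19 was called lower (log2 -0.67 ± 0.18 SE, adjusted p = 0.0398) and MUC1 higher (log2 0.59 ± 0.16 SE, adjusted p = 0.0448) in the fit without it. The keratinocyte list, led by KRT10, summed to 11.5, 11.2 and 10.7 against 9.53, 8.90 and 8.97, with KRT5 and KRT1 not in the table. KRT14 went the other way, at 0.242, 0.526 and 0.338 against 1.07, 0.830 and 0.983 (log2 -1.22 ± 0.24 SE, limma adjusted p = 0.00372). The fibroblast list, led by LUM, summed to 4.35, 3.20 and 3.69 against 2.28, 2.37 and 2.23. That difference lay mainly in LUM. Of the genes under the filter, PDGFRA was called lower in the fit without it (log2 -0.61 ± 0.17 SE, adjusted p = 0.0448), and COL1A2 (-0.37) and DCN (0.45) were not called. COL1A1 was not called either (log2 0.24, adjusted p = 0.263).

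Of the melanoma genes SOX10 was abundant in every library, and the pigment genes were low. SOX10, a transcription factor of the melanocyte lineage, had an FPKM of 180, 180 and 181 in shALKBH5 and 192, 182 and 179 in shCtrl (adjusted p = 0.532). MLANA was not in the table, and TYR, DCT and PMEL reached at most 0.0337, 0.0360 and 0.690. MITF had 1.57, 0.913 and 1.31 against 0.675, 1.01 and 0.645, groups that overlapped (log2 0.63 ± 0.23 SE, adjusted p = 0.0475), and its call was lost after rescaling, without the filter, with a replicate block and in 4 of 6 fits that left out a library. The list of 8 genes, 7 of them in the table, summed to 269, 271 and 267 in shALKBH5 and 226, 218 and 216 in shCtrl. Most of that difference lay in S100B, at 82.3, 85.1 and 79.0 against 31.5, 33.0 and 34.2. S100A1 was higher as well (4.43 ± 0.376 against 1.86 ± 0.194 FPKM, SD; log2 1.21 ± 0.10 SE, adjusted p = 4.35e-05), and so was PMEL in the fit without the filter (log2 1.08 ± 0.23 SE, adjusted p = 0.0172).

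The m6A peaks of the member genes were read from 1 list for each group. The lists hold nothing per library, so the values below have no replicates and no test. Each peak comes with its fold enrichment, IP against input. Peak lengths and overlaps are given as spans on the genome from first to last base, and any introns inside them were not taken out. The shALKBH5 list held 23 peaks in 9 of the 10 genes, and the shCtrl list held 23 peaks in all 10. Of the 9 genes tested in input RNA, 8 had a peak in the shALKBH5 list and 9 in the shCtrl list, against 86% and 85.5% of all tested genes. In each list 20 of the 23 peaks were annotated to the 3'UTR (87.0%), and 3 to the 5'UTR. Over all peaks the 3'UTR share was 45.5% in shALKBH5 and 46.2% in shCtrl. In each list MTR supplied 7 of the 20 member peaks in the 3'UTR and MMACHC 5, so the member share rests largely on these genes. The median fold enrichment of the member peaks was 4.36 in shALKBH5 and 4.70 in shCtrl, beside 5.31 and 5.25 over all 46039 and 44304 peaks. In each list 19 of the 23 peaks overlapped a peak of the other list on the same strand, and 12 did so over 50% of both peaks. With a fold of 2 or more and an FDR of 0.01 or less, 20 peaks remained in shALKBH5 and 16 in shCtrl. The shares over all peaks that overlap or pass these limits were not computed, so nothing is read from these counts.

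TCN1 had weak peaks at its ends. The shCtrl list held 1 peak in its 5'UTR at chr11:59864064-59866489, a span of 2426 bases on the genome, with a fold enrichment of 2.63. The shALKBH5 list held a peak of 61 bases at the same end, at chr11:59866429-59866489, with 1.53, and a second peak of 61 bases in the 3'UTR at chr11:59852950-59853010, with 1.23. The shALKBH5 values lay at the percentiles 3.72 and 0.440 of their list, and the shCtrl value at 21.4 of its own. With the stricter fold and FDR, 0 TCN1 peaks remained in shALKBH5 and 1 in shCtrl. The peaks at the 5' end differ widely in genomic span, which need not be their length in the RNA. Their log10 FDR was -7.02 in shALKBH5 and -2.49 in shCtrl, so fold and FDR rank them in opposite order. The 5' peak of both lists spans the start of the RefSeq transcript. The bases at positions 9 to 38 from that start, chr11:59866450-59866479 on the minus strand, are shown with capitals on a word of the m6A consensus (A, G or T, then A or G, then A, then C, then A, C or T). Such a word was in the opening 50 bases of 49.6% of all promoter entries, and a match is not a measured site.
TCN1 start: gttggagagatgAGACAgtcacaccagctg
The word begins at position 21 of the transcript.

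TCN2 carried 1 peak in its 3'UTR in each list, with a fold enrichment of 6.30 at chr22:30626854-30627241 in shALKBH5 and 3.83 at chr22:30626973-30627211 in shCtrl. CD320 had a 3'UTR peak at the end of the gene in each list, with 4.36 in shALKBH5 and 4.70 in shCtrl, and a further peak of 91 bases with 3.27 in the shALKBH5 list. The peak of CD320 at the gene end is thus shared in place and close in value.

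LMBRD1 had a peak only in the shCtrl list, at chr6:69796386-69796596 in the 5'UTR, with a fold enrichment of 7.66. Its listed log10 FDR was -0.63, which is weaker than an FDR of 0.05. ABCD4 had 1 peak in its 3'UTR in each list, 4.34 in shALKBH5 and 3.23 in shCtrl.

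MMACHC had 5 peaks in its 3'UTR in each list. The one nearest the gene end had the highest fold enrichment of any member peak, 23.3 at chr1:45512994-45513203 in shALKBH5, and 10.2 at chr1:45512934-45513263 in shCtrl. In both lists that peak lies in the stretch that overlaps PRDX1. So do the shALKBH5 peak at chr1:45512098-45512456 and the shCtrl peaks at chr1:45511620-45511709 and chr1:45512068-45512486. At the 5' side of the 3'UTR the shCtrl list held 1 peak of 1298 bases with 8.94, where the shALKBH5 list held peaks of 970 and 240 bases with 4.15 and 3.96.

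MTR had 7 peaks in each list, all in the 3'UTR, from 1.84 to 6.68 in shALKBH5 and from 1.57 to 6.19 in shCtrl. Under the stricter fold and FDR 6 remained in shALKBH5 and 4 in shCtrl. MTRR had 1 peak in each list, of 3445 bases with 3.89 in shALKBH5 and of 599 bases with 4.35 in shCtrl. The MTRR peak of shCtrl lies inside that of shALKBH5. The synthase and its reductase thus had peaks at the same end of the transcript in both groups.

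MMAA had 3 peaks in shALKBH5 and 2 in shCtrl, although its input FPKM was under 0.3 in every library. Its highest was 15.9 in the 5'UTR at chr4:145639114-145639594 in shALKBH5, where the shCtrl list held a peak of 40553 bases with 8.94. That span begins at the listed gene start and ends where the shALKBH5 peak ends. A further MMAA peak in the shALKBH5 list, of 20589 bases with 12.2, begins at the same gene start. MMAB had 1 peak in shALKBH5 and 3 in shCtrl, and the strongest was alike in both (7.35 and 7.45). Under the stricter fold and FDR 1 remained in each.

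**Figure D5:**
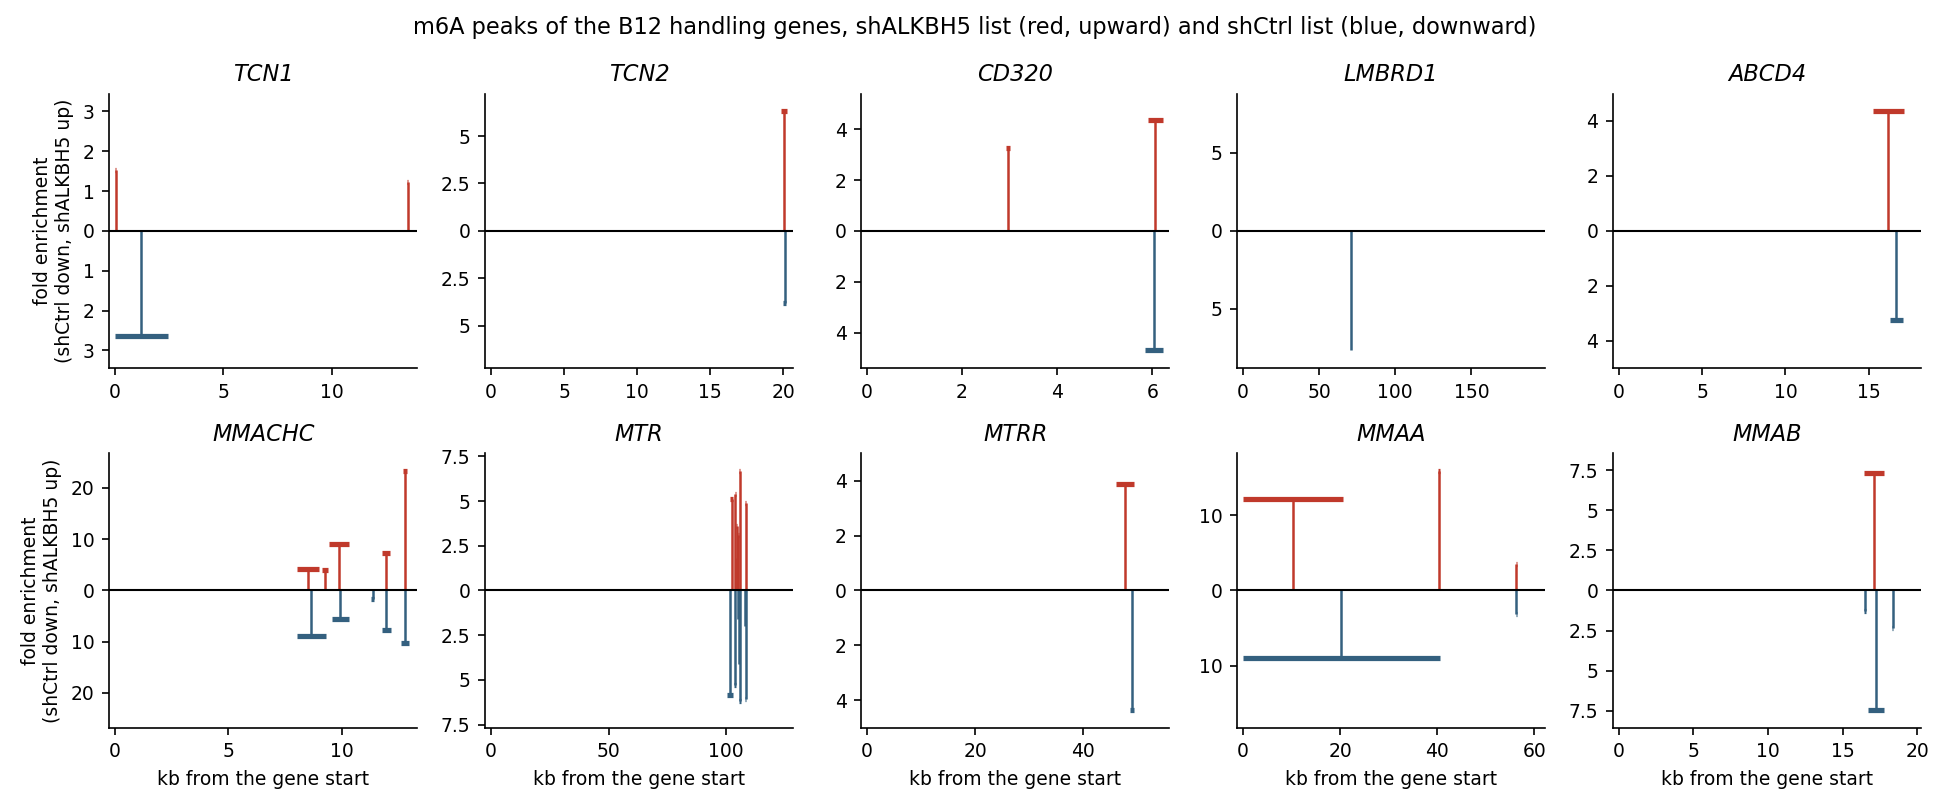
Fold enrichment (IP over input) of each m6A peak of the 10 member genes against distance in kb from the gene start, with the shALKBH5 list drawn upward in red and the shCtrl list downward in blue; horizontal bars give the span of a peak, and each gene has its own scales. Most peaks lie toward the gene end; TCN1, LMBRD1 and MMAA also have peaks toward the start.

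A table of differential peaks between the groups listed 6513 positions, with 1 each for MMAB (chr12:109555810-109557128), ABCD4 (chr14:74286017-74286796) and TCN2 (chr22:30626854-30627271), all in the 3'UTR. That is 3 of the 9 tested member genes, against 32.7% of all tested genes. TCN1 was not among them. Only the positions were read from that table, and a listing is not a call.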

How the data were processed

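Input RNA and m6A IP libraries (3 each per group) were assigned from the sample labels. The authors deposited FPKM per input library, and for each group 1 list of peaks. By the file headers, the deposited enrichment is a ratio of IP to input. The deposited log10 p and FDR, made by the authors' peak calling, were read as a score. The aligner, counter and peak caller are not given in the sources used here, nor is whether replicates were pooled. The table of differential peaks holds a fold change, p and FDR of the authors' own comparison, and the expression table a fold change and p (edgeR, by the methods); these were not used. The labels' processing field names mm10, but the gene names are human, and of 21695 genes matched to RefSeq GRCh38.p14, 66.3% shared a start or end. Peak starts count from 0 (6445 and 6232 peaks begin 1 base before a gene start as listed) and were raised by 1.

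FPKM are not counts, so log2(FPKM + 0.1) was fitted with limma 3.58.1 in R 4.3.3 (lmFit, eBayes with trend, two-sided) for genes that averaged 0.5 FPKM or more, with Benjamini-Hochberg adjustment over all 12985. The script was tested on simulated data. Python 3.11.15, numpy 2.4.6, pandas 2.3.3 and matplotlib 3.10.9 did the rest. Peaks overlapped by at least 1 base on the same strand. Counts were not analysed here, so the depth is unknown. An exact permutation test of 3 against 3 cannot go below p = 0.1. The labels do not state separate cultures, and the paper says only in general that experiments were done 3 times independently, so p-values measure the spread between these libraries, which may be technical.

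The members and lists were chosen with earlier results of these data known. Named were ALKBH5, the members, the other cobalamin genes, called genes around the cobalamin enzymes, 3 neighbours of TCN1 on each side, the 5 genes most like it, and the most abundant marker of each cell type list. Uncalled genes around the enzymes, SLAMF9, the tested genes overlapping a member and further markers were added with their values known. From the planned list around the enzymes 1 gene was left out of the text, figure and counts after the results were known, for a reason other than its values. Calls were repeated with pseudocounts of 1 and 0.01, without the filter or with it raised to 1 FPKM, after rescaling by median ratio, with a replicate block, with eBayes without trend, and with each library left out. Peaks were repeated with only those of fold 2 or more and FDR 0.01 or less, and with a reciprocal overlap of 50%.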

Additional observations from a re-analysis of the deposited data

How the results depend on the processing

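Among the 40 tested named genes other than TCN1, 33 kept their direction or their lack of a call under every alternative in which they were tested (3 of the 40 fell under the filter at 1 FPKM), and none was called in the opposite direction. The exceptions were TCN2, ABCD4, MTR, ZNF143, ABCC1, SUCLA2 and MAT2B, and the cause was not tested. The 40 include the 5 genes chosen by their likeness to TCN1 in this contrast, whose calls follow from that choice. A kept call says nothing of the size, which hung on the pseudocount for FGF7P3 and LIVAR. The log2 fold change of TCN1 was 3.19 with a pseudocount of 1, which by construction shrinks differences of low values, and ran from 3.56 to 3.78 with 1 library left out. Of the other cobalamin genes 2 were called, against 4 without the filter (3 more genes tested) and 1 after rescaling. Of the 46 member peaks, 38 overlapped a peak of the other group, and 24 did so with a reciprocal overlap of 50%. The stricter fold and FDR were passed by 36, and the shares over all peaks were not computed. Genes called in all numbered between 6871 and 7832 with a library left out. Rescaling lowered the median log2 fold change of all genes by 0.08 and gave 3756 higher and 3919 lower calls, against 4509 and 3408.

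With the replicate number as a block, 7271 genes were called, 7150 of them also called without it, and of the 40 genes above only SUCLA2 lost its call. MITF and KRT7, markers outside those 40, lost theirs as well. The values gave no clear sign that equal numbers pair the libraries. Deviations from the group mean correlated at 0.018, -0.046 and 0.059 for same-numbered pairs, and not every library matched its own number best. With so few libraries this check cannot exclude a pairing.

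There were 3 libraries per group from 1 cell line, and the hairpin in the shALKBH5 cells is not named. MMAA, CUBN and LRP2 were under the filter. Peaks had no replicates, so no difference in m6A was tested, and neither protein nor cobalamin was measured.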

Other observations

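Peaks of the other cobalamin genes and of the genes around the enzymes were also listed, again with 1 list per group and no test. Of the 7 tested other cobalamin genes, 4 had a peak in the shALKBH5 list and 6 in the shCtrl list, beside 86% and 85.5% of all tested genes. MMADHC had 1 peak in each, with a fold enrichment of 6.12 in shALKBH5 and 40.9 in shCtrl, and HCFC1 had 2 in each, with at most 21.3 and 22.9. MMUT and ZNF143 had a peak in the shCtrl list only. PRDX1, the most abundant gene of these lists, had no peak in either, though the MMACHC peaks named above lie opposite part of it. Of the 11 tested genes around the enzymes, 10 had a peak in the shALKBH5 list and 9 in the shCtrl list, beside the same shares. PCCA had peaks in the shALKBH5 list only (2, with at most 9.19). SUCLG2 had 1 weak peak in each, with 2.02 and 1.38. CBS had 3 peaks in shALKBH5 and 4 in shCtrl, with at most 20.8 and 19.8. AHCY had 4 and 3, with at most 12.2 and 3.74.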
